A study of Drosophila melanogaster with 12 samples.

Results

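The genes described here encode the nuclear subunits of the 5 oxidative phosphorylation complexes, with their close paralogues, in larval eye discs of Drosophila melanogaster. Members were taken by name, as probe sets assigned to 1 gene whose current symbol begins with ND-, Sdh, UQCR-, COX or ATPsyn, leaving out chromosome 4. This gave 79 probe sets for 72 genes, of 18952 probe sets and 11982 named genes on the array. By symbol, 32 genes belong to complex I, 7 to complex II, 6 to complex III, 14 to complex IV and 13 to complex V. They comprise 50 subunit genes, 21 paralogues whose symbols end in L or in L and a number, and the assembly factor Sdhaf3. A further 17 annotated genes with such symbols had no probe set of 1 gene and were not analysed here, among them SdhA, UQCR-C1, UQCR-C2, ND-23, ND-24, ND-30 and the mitochondrially encoded COX1, COX2 and COX3.

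Oxidative phosphorylation makes most of the ATP of aerobic cells in the inner mitochondrial membrane. Complex I takes electrons from NADH and complex II from succinate, ubiquinone carries them to complex III and cytochrome c to complex IV, which reduces oxygen. Complexes I, III and IV pump protons, and complex V lets them back through a rotor to make ATP. Many fly subunit genes have a duplicated copy that is read mainly in the testis.

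RNA was measured on 12 Affymetrix arrays of eye discs without antennae from wandering larvae of instar 3, raised at room temperature. The Runt group (w; ro-Gal4/UAS-Run) expressed the transcription factor Runt under a driver made from the eye gene rough, and the Runt G163R group (w; ro-Gal4/UAS-Run[G163R]) expressed Runt with that amino acid change. The sens mutant group (w; sensDF2RES/sensDF2RES; sensE1/sensE1) was homozygous for sensDF2RES and sensE1, named after senseless, a transcription factor gene of R8 photoreceptors, and the sens control group (w; sensDF2RES/+; sensE1/+) was heterozygous for both. The labels do not describe these elements further. All groups were w and had 3 arrays each. No Runt-experiment array lacked a Runt transgene, and the driver acts in only some cells of the disc, so the discs also held cells that do not express the transgene. Each 2-group difference was taken within its own experiment, with the spread estimated over all 12 arrays. Nothing in the labels says that the arrays of a group came from separate crosses, so the p-values rest on a spread between samples that may be purely technical.

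All 12 arrays carried the eye disc transcripts so, eya, dac, gl, ato and elav, with a list mean between 10.9 and 11.6 log2 units. The transcript of sens was higher in the arrays labelled sens mutant, at 10.8, 10.4 and 10.6, against 8.96, 9.30 and 9.61 in those labelled control. The R8 gene boss was lower there, with a difference of -4.04. Whether the alleles abolish this transcript is not in the labels, so the directions given for that experiment rest on the labels. Values are log2 units, and most probe sets on the array lie in a dense floor below 3, where differences are compressed. Sens control replicate 1 stood apart from the other arrays, with an upper quartile of 7.87 over all probe sets, against 8.01 to 8.14 on the other arrays. Runt replicate 3 also stood apart from its group, and without it the probe sets called between Runt and Runt G163R numbered 119, against 5 with all arrays. A probe set was called at a limma adjusted p under 0.05 over 11470 probe sets.

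The subunit genes were bright and their paralogues were mostly in the floor. Of 50 subunits, 47 had a 12-array mean above 8, with 25 in complex I, 3 in complex II, 3 in complex III, 7 in complex IV and 9 in complex V. The exceptions were UQCR-11, a small subunit of complex III, at a mean of 5.22, and the complex I accessory subunits ND-B12 and ND-B8, whose probe sets stayed below 3 on every array. Of 21 paralogues, 19 stayed below 3 on every array, namely ND-20L, ND-24L, ND-51L1, ND-51L2 and ND-B14.5AL of complex I, SdhAL, SdhBL and SdhCL of complex II, UQCR-11L and UQCR-14L of complex III, COX4L, COX5BL, COX6AL, COX6AL2, COX6CL, COX7AL and COX7AL2 of complex IV, and ATPsynCF6L and ATPsynGL of complex V. Among the others, ATPsynbetaL, a copy of the catalytic beta subunit gene, passed 3 on sens mutant replicate 1, at 3.53, and on sens control replicate 1, at 3.03. ATPsynepsilonL, a copy of the gene for the small central-stalk subunit, had a mean of 5.66. Of the 7 testis marker genes measured beside them, 6 also stayed below 3 on every array. In all, 58 members passed the filter on low values, namely the 50 subunits, 7 paralogues and Sdhaf3. The filter did not remove all members in the floor. ND-B12, ND-B8, SdhBL, UQCR-14L, COX4L, COX7AL2 and ATPsynCF6L passed it with every array below 3, and are counted among the 58.

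**Figure D1:**
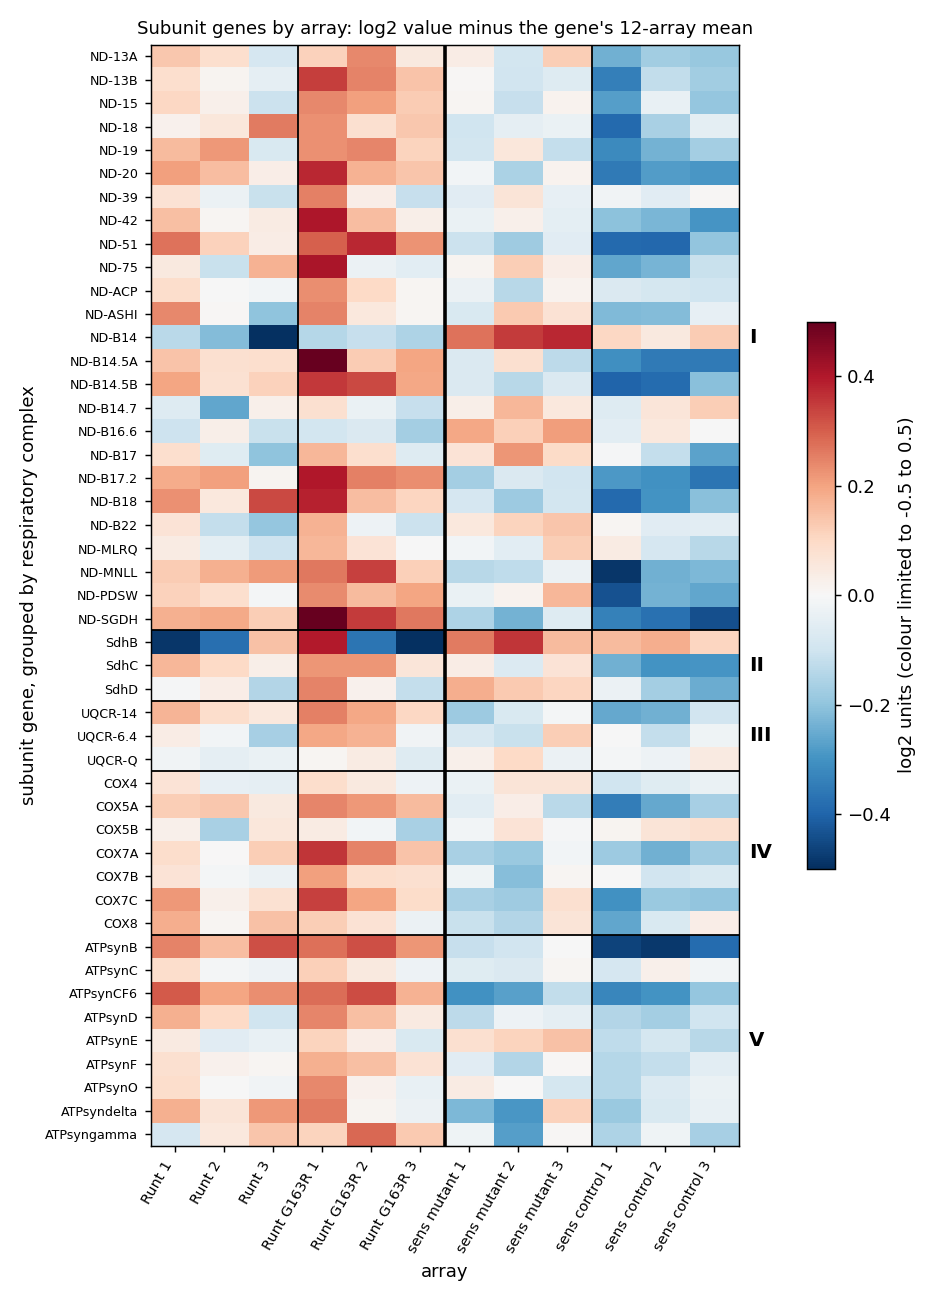
Each row is 1 of the 47 subunit genes with a mean above 8, grouped by complex, and each column 1 of the 12 arrays; the colour is the log2 value minus the gene's mean over 12 arrays, limited to 0.5 either way. Runt G163R replicate 1 is the darkest red column, and the 3 sens control columns are mostly blue in complex I.

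Between Runt and Runt G163R discs no member passed the test, and the members' differences were small and mostly below 0. Of the 47 bright subunits, 43 had a lower mean in Runt than in Runt G163R, with differences from -0.23 to 0.07, while 44.9% of all 4758 probe sets above 8 had a higher mean in Runt. The count lower in Runt was 42 when the arrays were quantile normalized again. It was also 42 when every array was centred on the median of its 11470 kept probe sets (median subtraction). The median difference was -0.10 for complex I, -0.07 for complex II, -0.08 for complex III, -0.10 for complex IV and -0.04 for complex V, against -0.01 for all probe sets above 8. With limma 0 of 58 members were called, where 0.0436% of all probe sets were called (5 of 11470). At an unadjusted p under 0.05 the count was 6 members, where 6.36% of all probe sets passed, and the smallest adjusted p was 0.659. With limma array weights, 3 members were called, all lower in Runt (COX7A, ND-13B and ND-B14.5B), among 466 probe sets called in that fit.

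The 6 members with an unadjusted p under 0.05 were 5 accessory subunits of complex I and COX7A. ND-SGDH, an accessory subunit of the membrane arm, stood at 11.73, 11.74 and 11.67 in Runt discs, against 12.05, 11.90 and 11.81 in Runt G163R discs. ND-13B, an accessory subunit of the matrix arm, stood at 8.92, 8.85 and 8.79 in Runt, against 9.18, 9.08 and 8.98 in Runt G163R. For both genes the groups did not overlap, with differences of -0.21 (SE 0.0649, adjusted p = 0.659) and -0.23 (SE 0.0767, adjusted p = 0.702). COX7A, a small subunit of cytochrome c oxidase, stood at 13.23, 13.14 and 13.26 in Runt, against 13.50, 13.39 and 13.28 in Runt G163R. Its groups did not overlap either, and its difference was -0.18 (SE 0.0639, adjusted p = 0.712). The other members of the 6 were ND-B14.5B at -0.16, ND-B17.2 at -0.16 and ND-15 at -0.18. In all, 8 subunits lay lower in Runt without overlap, where 5.59% of all probe sets above 8 did so, and 0 lay higher, where 4.69% did so. The 8 were ND-13B, ND-15, ND-B17.2, ND-PDSW, ND-SGDH, COX7A, COX7B at -0.12 (adjusted p = 0.879) and COX5A at -0.10 (adjusted p = 0.891). A dimmer probe set of COX7B differed by -0.09, and its groups overlapped.

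The size of these differences moved with single arrays. Runt G163R replicate 1 held the highest of the 12 values for 31 of 47 bright subunits (66.0%), and for 19.8% of all probe sets above 8. Among the 6 arrays of that experiment, Runt replicate 3 held the lowest value for 25 of 47 (53.2%), and for 27.1% of all probe sets above 8. Without Runt G163R replicate 1 the median difference was -0.06 for complex I and -0.04 for complex IV. Without Runt replicate 1 it was -0.16 for complex I, and without Runt replicate 3 it was -0.09, with 0 members called in each of these fits. SdhB, the iron-sulfur subunit of succinate dehydrogenase, had the largest standard error of the 47, at 9.68, 9.79 and 10.32 in Runt, against 10.57, 9.80 and 9.63 in Runt G163R. Its difference of -0.07 has a 95% interval of -0.57 to 0.44.

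In complexes II, III and V no member reached an unadjusted p under 0.05. ATPsynF, the f subunit of the membrane part of ATP synthase, stood at 13.58, 13.52 and 13.51 in Runt, against 13.68, 13.65 and 13.57 in Runt G163R, a difference of -0.10 (adjusted p = 0.844). UQCR-6.4 of complex III stood at 12.18, 12.13 and 11.98 in Runt, against 12.33, 12.32 and 12.12 in Runt G163R, a difference of -0.16 (adjusted p = 0.844). In both genes the groups overlapped. ATPsyngamma differed by -0.14 and UQCR-14 by -0.08. The membrane anchors of complex II, SdhC and SdhD, differed by -0.07 and -0.09, and the floor paralogues SdhBL and UQCR-14L by 0.02 and 0.01. UQCR-Q, a small subunit of complex III, differed by -0.03, with a 95% interval of -0.14 to 0.09, and ATPsynC, the proton-carrying ring subunit of ATP synthase, by -0.03, with an interval of -0.14 to 0.08. In 4 of the 47 bright subunits the mean in Runt was above that in Runt G163R, namely ND-B16.6 by 0.05, COX5B by 0.02, COX8 by 0.06 and ATPsyndelta, a central-stalk subunit, by 0.07, and none of the 4 passed the test. ATPsynepsilonL stood at 5.23, 5.59 and 5.21 in Runt, against 5.32, 5.99 and 5.63 in Runt G163R, a difference of -0.30 (adjusted p = 0.961).

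Between the arrays labelled sens mutant and sens control, 9 subunits rose and 1 paralogue fell. The rises were ND-PDSW, ND-SGDH, ND-20, ND-B14.5B and ND-B16.6 of complex I, SdhC of complex II, COX5A of complex IV, and ATPsynB and ATPsynE of complex V, by 0.17 to 0.37 log2 units. The paralogue was ATPsynepsilonL, which fell by 1.74. Of the 58 members tested, 9 were called higher and 1 lower with limma, where the shares over all probe sets were 11.6% higher and 5.3% lower. All 9 rises lie among the 47 bright subunits (19.1%), and 16.4% of all probe sets above 8 were called higher, so the share of subunits called is near that of other genes of such signal. The share of calls that were higher over the whole array depended on the scaling. It was 68.7% with the values as deposited, 50.1% after the second quantile normalization and 29.7% after median subtraction. Median subtraction shifted the typical tested probe set to a difference of -0.14, against 0.03 with the values as deposited. Of the 9 rises, those of ATPsynB, ND-PDSW and SdhC were also called after the second quantile normalization and 0 after median subtraction, while the fall of ATPsynepsilonL was called in both.

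**Figure D2:**
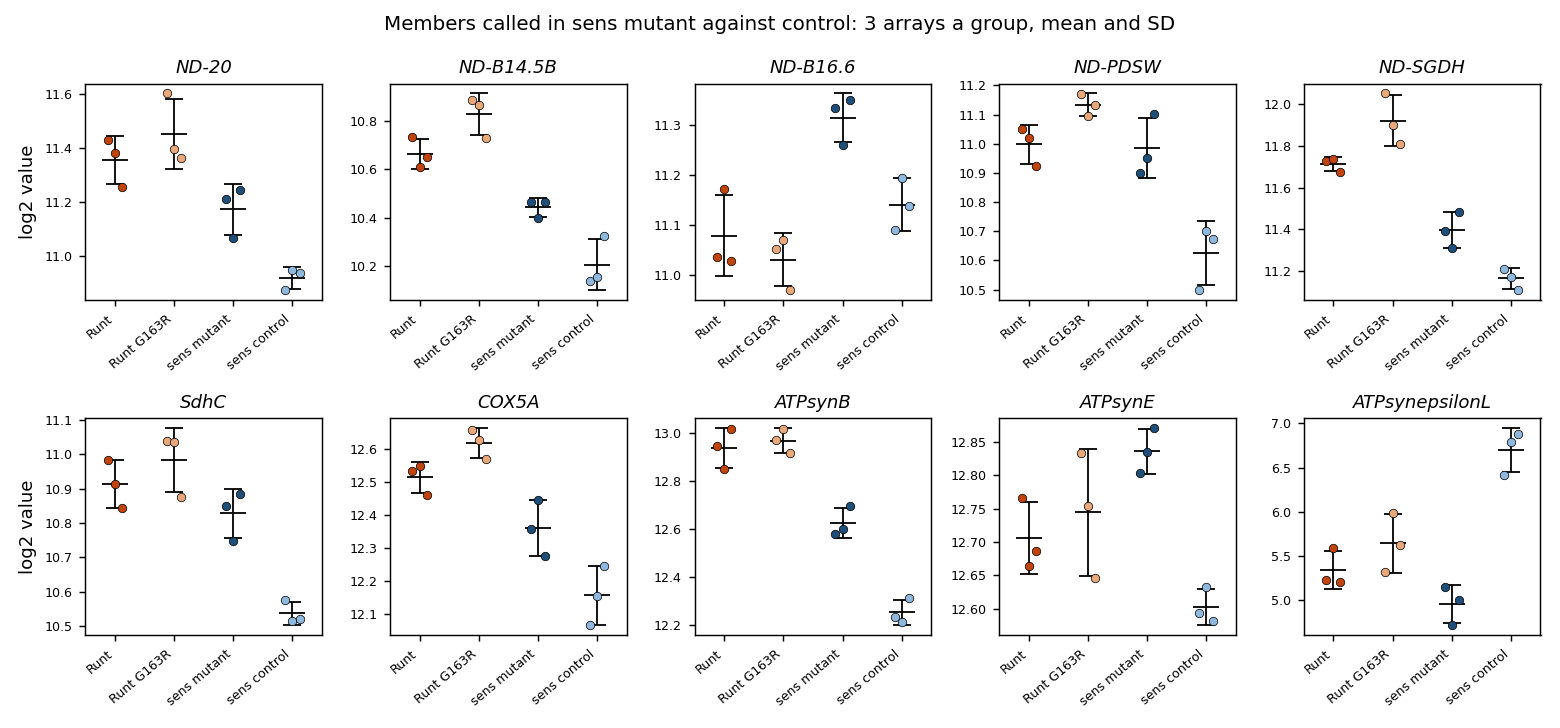
Log2 values of the 10 members called between sens mutant and control, with a point per array, and the mean and SD of each group of 3 as bars; each panel has its own axis, which does not start at 0. In all 10 panels the 3 sens mutant points lie clear of the 3 sens control points, above them in 9 genes and below them in ATPsynepsilonL.

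All 25 bright complex I subunits had a higher mean in the mutant arrays, by 0.01 to 0.36, though 22 did after the second quantile normalization and 17 after median subtraction. Over the 5 complexes 43 of 47 had a higher mean, against 35 and 22 in those settings, and the share of all probe sets above 8 was 68.2% with the values as deposited, 56.3% and 38.6%. Of the 25, 18 lay higher without overlap, where 34.2% of all probe sets above 8 did so. ND-PDSW, an accessory subunit of the membrane arm, stood at 10.90, 10.95 and 11.10 in mutant arrays, against 10.5, 10.70 and 10.67 in control arrays. It rose by 0.36 (SE 0.0683, adjusted p = 0.00659). ND-20 carries the last iron-sulfur cluster before ubiquinone, and stood at 11.21, 11.06 and 11.24 in mutant arrays, against 10.87, 10.95 and 10.93 in control arrays. Its rise was 0.26 (SE 0.0743, adjusted p = 0.0417).

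ND-SGDH stood at 11.39, 11.31 and 11.48 in mutant arrays, against 11.21, 11.17 and 11.11 in control arrays, a rise of 0.23 (SE 0.0649, adjusted p = 0.0361). ND-B14.5B, another accessory subunit of the membrane arm, stood at 10.47, 10.40 and 10.46 in mutant arrays, against 10.14, 10.15 and 10.33 in control arrays. That rise was 0.24 (SE 0.0639, adjusted p = 0.031). ND-B16.6, whose mammalian counterpart was first described as a cell-death gene, stood at 11.33, 11.26 and 11.35 in mutant arrays, against 11.09, 11.19 and 11.14 in control arrays. Its rise of 0.17 (SE 0.0520, adjusted p = 0.046) was the smallest of the 9.

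Other complex I subunits were as far apart and did not pass the test. ND-B14.5A differed by 0.30 (adjusted p = 0.056), ND-B17.2 by 0.21 (adjusted p = 0.0522) and ND-B14, ND-13A and ND-B17 by 0.24, 0.22 and 0.26. ND-51, which binds NADH and the flavin, differed by 0.21 (adjusted p = 0.0812), and ND-75, which holds iron-sulfur clusters in the matrix arm, by 0.26 (adjusted p = 0.176). At the low end stood ND-39, at 0.01 with a 95% interval of -0.18 to 0.20, ND-ACP, the mitochondrial acyl carrier protein, at 0.04, and ND-B14.7 at 0.04. A dimmer probe set of ND-ACP gave 0.19, which did not pass the test. ND-MLRQ, whose mammalian counterpart is now placed in complex IV, differed by 0.08.

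In complex II the membrane anchor subunits stood higher in mutant arrays. SdhC stood at 10.85, 10.75 and 10.89 in mutant arrays, against 10.58, 10.51 and 10.52 in control arrays, and rose by 0.29 (SE 0.0591, adjusted p = 0.00892). Its partner SdhD, at 10.25, 10.20 and 10.18 in mutant arrays, against 10.04, 9.90 and 9.82 in control arrays, also differed by 0.29 without overlap, but missed the threshold (adjusted p = 0.0596). SdhB differed by 0.11, with a 95% interval of -0.40 to 0.61. Sdhaf3, which helps SdhB acquire its iron-sulfur clusters, differed by 0.45 (SE 0.339, adjusted p = 0.387), its mutant arrays at 6.47, 5.88 and 6.56 and its control arrays at 6.34, 5.07 and 6.14.

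Complexes III and IV held 1 called member between them. COX5A, a nuclear-encoded subunit of cytochrome c oxidase, stood at 12.36, 12.45 and 12.28 in mutant arrays, against 12.07, 12.16 and 12.25 in control arrays, and rose by 0.20 (SE 0.0574, adjusted p = 0.0373). The other bright subunits of complex IV differed by -0.03 to 0.14. COX5B stood at -0.03, with a 95% interval of -0.18 to 0.12, COX4 at 0.10, COX7C at 0.14 and COX7A at 0.08. For COX7B the brighter probe set differed by -0.02 and a dimmer one by 0.03, and neither was called. In complex III, UQCR-14, UQCR-6.4 and UQCR-Q differed by 0.11, 0.02 and 0.03, the floor paralogue UQCR-14L by -0.04, and UQCR-11 by -0.08, with a 95% interval of -0.71 to 0.55.

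Complex V held the called subunit with the largest rise, beside members with differences near 0. ATPsynB, the b subunit of the stalk that holds the catalytic head still, stood at 12.58, 12.60 and 12.69 in mutant arrays, against 12.23, 12.21 and 12.31 in control arrays. It rose by 0.37 (SE 0.0532, adjusted p = 0.00157). ATPsynE, the e subunit of the membrane part, stood at 12.80, 12.84 and 12.87 in mutant arrays, against 12.59, 12.63 and 12.58 in control arrays, a rise of 0.23 (SE 0.05, adjusted p = 0.0113). The other 7 bright subunits of complex V did not pass the test, with differences from -0.03 to 0.07. Among them ATPsynC differed by -0.02, with a 95% interval of -0.13 to 0.10, and the peripheral-stalk subunits ATPsynD and ATPsynO by 0.07 each. For ATPsyngamma, the rotating shaft, the probe sets disagreed. The brighter one differed by 0.02 (adjusted p = 0.905) and the dimmer one by 0.26 (adjusted p = 0.00721), and the gene is counted above by the brighter one.

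ATPsynepsilonL stood at 5.15, 4.72 and 5.0 in mutant arrays, against 6.42, 6.79 and 6.89 in control arrays. It fell by 1.74 (SE 0.213, adjusted p = 0.000689). The mutant arrays were nearest to the Runt and Runt G163R arrays, which lay between 5.21 and 5.99, and the control arrays stood apart from all the others. The gene lies on 3R, as do SdhC, COX5A and ATPsynE, and sens lies on 3L with ND-SGDH and ATPsynB. Off these arms 32 members were tested, and 4 of them (12.5%) were called higher. They were ND-20 and ND-B16.6 on the X and ND-PDSW and ND-B14.5B on 2L, and 0 members were called lower. A share for other genes off these arms is not given here. The genotypes write sensDF2RES and sensE1 on separate chromosomes, and both differ between the groups. Leaving out 3L and 3R may therefore not remove every arm with a genotype difference, and 2L was kept.

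The complexes differed in where their members lay beside other probe sets, as a description with no test of the difference between complexes. The median difference was 0.21 for complex I, 0.29 for complex II, 0.03 for complex III, 0.08 for complex IV and 0.04 for complex V, against 0.10 for all probe sets above 8. Minus that common median, the values after the second quantile normalization were 0.12 for complex I, 0.21 for complex II and -0.03 for complex V. Median subtraction cannot change such a relative value, since it shifts all probe sets of an array alike, and with it complexes III, IV and V had medians below 0.

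The common median hides a trend with signal, so subunits were also read against all probe sets in their own range of signal. With a mean between 8 and 10, the 7 subunits had a median difference of 0.16, against 0.15 for all probe sets of that range. Between 10 and 11, where 10 of the 13 subunits belong to complex I and 3 to complex II, it was 0.22, against 0.08. Between 11 and 12 it was 0.14 for 9 subunits, against 0.08. Between 12 and 13 it was 0.04 for 13 subunits, against 0.06, and above 13 it was 0.07 for 5 subunits, against 0.01. Of these ranges, the one from 10 to 11 had the widest gap, and in that from 12 to 13 the subunits lay lower. Above the median of their own range stood 21 of 25 subunits of complex I, 3 of 3 of complex II, 1 of 3 of complex III, 4 of 7 of complex IV and 5 of 9 of complex V.

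**Figure D3:**
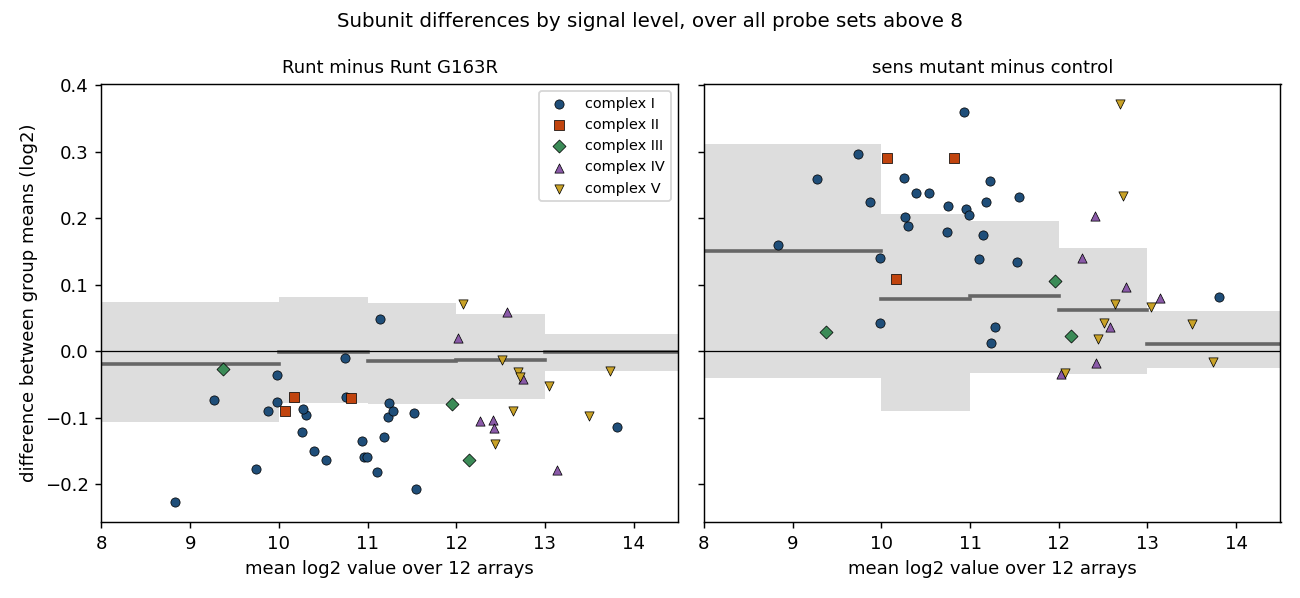
The difference between group means (log2) is plotted against the mean over 12 arrays for each of the 47 bright subunits, with symbols by complex; grey bands span the lower to the upper quartile of all kept probe sets in that range of signal and grey lines mark their median. In the right panel most symbols of complex I and most of complex V lie inside the band and their others above it, while in the left panel most symbols lie below the line.

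**Figure D4:**
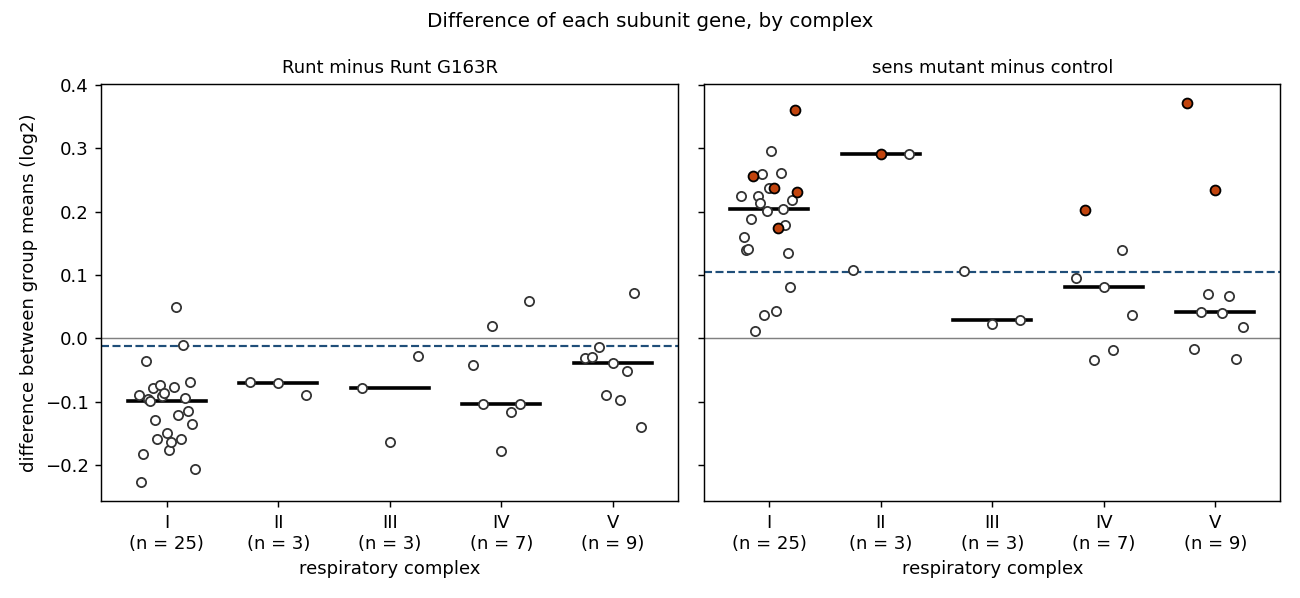
Each circle is the difference between group means (log2) of 1 bright subunit, filled where it was called with limma; black bars are the medians of complexes and the dashed line is the median of all probe sets above 8. Filled circles occur in the right panel only, 5 in complex I, 1 in complex II, 1 in complex IV and 2 in complex V.

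Complexes I and V were also compared within each array, where a shift equal for all probe sets cancels. A trend of the difference with signal does not cancel, and complex V subunits were brighter. All of them lay above 12, and most complex I subunits lay below 12. The median sens difference of all probe sets was 0.15 between 8 and 10, and 0.08 from 10 to 11 and from 11 to 12. It was 0.06 between 12 and 13 and 0.01 above 13. The part of that trend in this comparison was not tested. The mean of the complex I subunits minus that of the complex V subunits was -2.04, -1.99 and -2.08 in mutant arrays, against -2.13, -2.14 and -2.14 in control arrays. These groups did not overlap. In the Runt experiment it was -2.12, -2.13 and -2.20 in Runt arrays, against -2.05, -2.11 and -2.10 in Runt G163R arrays, so the range of the Runt G163R arrays reaches the sens mutant values. The level of this offset comes from the probes and has no meaning of its own. Relative to the mean of all probe sets above 8 on the same array, complex I stood at 0.62 ± 0.03 in mutant arrays and 0.51 ± 0.05 in control arrays (SD, n = 3 each). Complex II stood at 0.40, 0.42 and 0.35 in mutant arrays, against 0.39, 0.20 and 0.14 in control arrays, and these groups overlapped. Complex V stood at 2.65 ± 0.05 in mutant arrays and 2.65 ± 0.04 in control arrays.

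**Figure D5:**
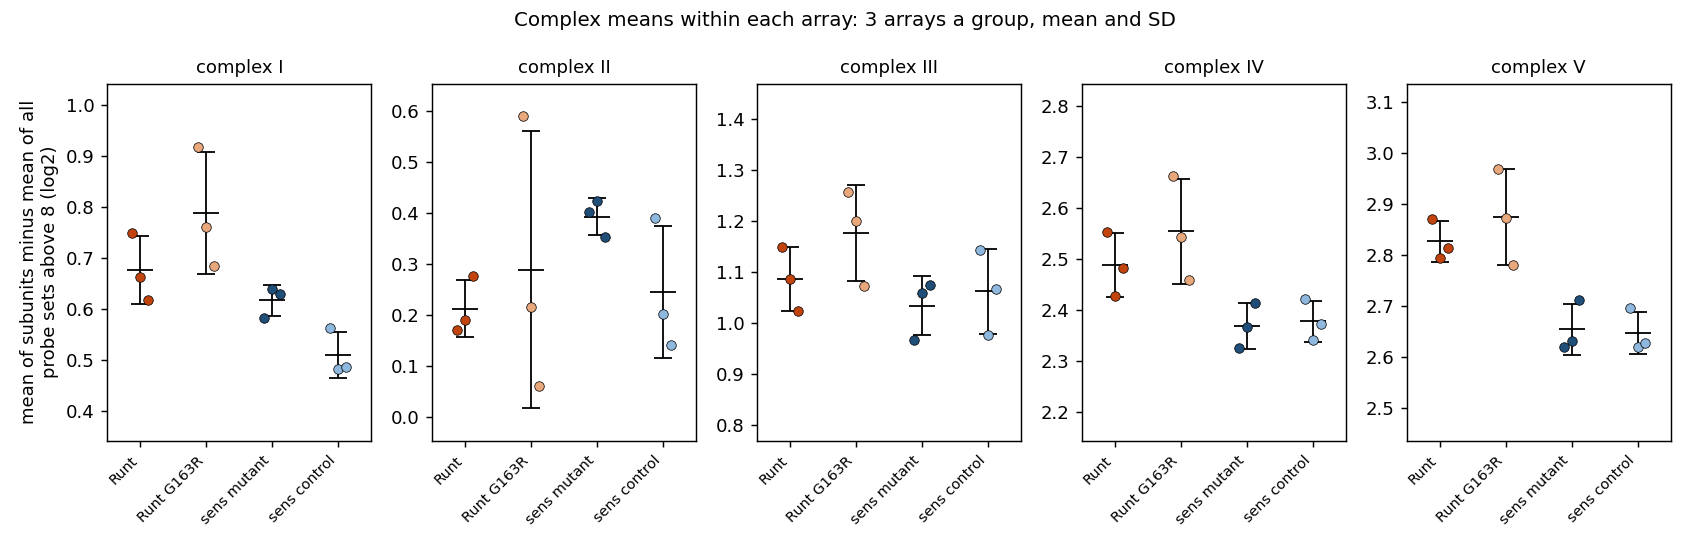
For each complex, the mean of its bright subunits minus the mean of all probe sets above 8 on the same array (log2), with a point per array and the mean and SD of each group of 3; the axes differ in their start and do not begin at 0. In complex I the 3 sens mutant points, from 0.58 to 0.64, lie above the 3 sens control points, from 0.48 to 0.56, and in complexes II and V these groups overlap.

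Other measurements moved with the sens comparison. Sens control replicate 1 held the lowest of the 12 values for 20 of 47 bright subunits (42.6%), and for 29.0% of all probe sets above 8. Without it the median of complex I was 0.17 and 4 members were called higher (ATPsynB, ATPsynE, ND-PDSW and SdhC), and the same 4 remained without sens mutant replicate 1 and without sens control replicate 2. Without sens mutant replicate 3 the count was 5, since COX5A was called beside them. Over all probe sets, calls in either direction numbered 1468 without sens control replicate 1 and 1486 without sens control replicate 2. They numbered 1220 without sens mutant replicate 1 and 1318 without sens mutant replicate 3, against 1940 with all arrays. Markers of neighbouring tissues differed too, beside shares over all probe sets of 11.6% called higher and 5.3% called lower. Of 6 brain and neuroblast markers, 5 were called lower in mutant arrays (mira, insc, ase, wor and Ddc), with a list mean of 5.87 to 5.93 in mutant arrays, against 7.02 to 7.48 in control arrays, and wor in the floor on all mutant arrays. Of 5 antenna and leg disc markers, 4 were called lower (Dll, al, ap and salm), with a list mean of 6.30 to 6.45 in mutant arrays, against 7.24 to 7.70 in control arrays, and ap in the floor on all mutant arrays. As a Spalt transcription factor gene of photoreceptors too, salm does not mark antenna and leg alone, and the list mean includes it. Among other tissues, 1 of 5 tested muscle markers was called higher (sls), and 0 of 8 haemocyte and 0 of 2 testis markers were called. Of 6 salivary gland markers 1 was called lower, fkh, which lay in the floor on all arrays, while the other 5 had differences from 1.03 to 4.07 that did not pass the test, and the list median was 1.24. Fat body transcripts varied between arrays of 1 group, and 0 of 3 were called, with standard errors of 1.82 to 2.34. Lsp2, a larval serum protein gene, stood at 6.13, 10.48 and 5.18 in mutant arrays, against 13.07, 8.82 and 5.39 in control arrays. The highest of these was sens control replicate 1, the array that held the lowest value for 20 of 47 subunits. Of the 6 eye disc markers 1 was called lower (gl, at -0.47). The part of these tissues in the subunit differences was not tested, and in whole discs fewer cells of a type and less RNA per cell cannot be told apart.

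Genes of neighbouring pathways were read in the same fit, and of the rises given for them only those of CIA30, mAcon1 and Scsalpha1 also passed after the second quantile normalization, and only that of CIA30 after median subtraction. Over the whole array 11.6% of tested probe sets rose in mutant arrays and 5.3% fell, with a median difference of 0.03. That median was 0.10 for probe sets with a mean above 8, and 0.15 for those between 8 and 10. In the tricarboxylic acid cycle and pyruvate dehydrogenase list 4 of 12 tested genes rose in mutant arrays and 0 fell, with a list median of 0.22. They were mAcon1, mitochondrial aconitase, by 0.33, Mdh1, a malate dehydrogenase, by 0.35, Scsalpha1, a subunit of succinyl-CoA synthetase, by 0.30, and Idh3b, a subunit of the NAD-dependent isocitrate dehydrogenase, by 0.36. In the list of respiratory complex assembly genes 3 of 12 rose and 0 fell, with a list median of 0.41. CIA30, a complex I assembly factor gene on 3R, stood at 6.68, 6.82 and 6.85 in mutant arrays, against 5.76, 5.93 and 5.51 in control arrays, and rose by 1.05 (SE 0.162, adjusted p = 0.00228). Scox and Cox17, which deliver copper to cytochrome c oxidase, rose by 0.34 and 0.44.

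In the list of mitochondrial transcription and biogenesis genes 1 of 12 rose and 1 fell, where 11.6% of all probe sets rose and 5.3% fell. Pink1, a mitochondrial quality-control kinase, rose by 0.58. The other gene was ewg, the fly homologue of the mammalian nuclear respiratory factor, which fell by 1.13, but its difference was -0.17 and not called when its probe sets were averaged. TFAM, which packages mitochondrial DNA, differed by 0.29 (adjusted p = 0.0653). Among electron carriers and transporters 1 of 8 fell and 0 rose. It was Mpc1, part of the mitochondrial pyruvate carrier and on 3R, which stood at 7.42, 7.65 and 7.32 in mutant arrays, against 8.22, 8.15 and 7.99 in control arrays, and fell by 0.66 (SE 0.143, adjusted p = 0.012).

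In glycolysis 0 of 9 tested genes and among antioxidant enzymes 0 of 5 were called with limma. At an unadjusted p under 0.05 the counts were 1 and 2, where 30.9% of all probe sets passed. Of 6 subunit genes that carry other names, 1 rose, where 11.6% of all probe sets were called higher. It was ox, a small subunit of complex III, by 0.32 (adjusted p = 0.0445). The Rieske subunit gene RFeSP differed by 0.27 (adjusted p = 0.0537), and Cyt-c1, cype, levy and blw, the alpha subunit gene of ATP synthase, by -0.00212, 0.0414, -0.00604 and -0.00261. In the Runt comparison 0 genes of any of these 7 lists were called, and their list medians ran from -0.14 for the assembly genes to 0.01 for the antioxidant enzymes.

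The members' differences in the 2 experiments were compared directly in the same fit. Of 47 bright subunits, 41 had a mean lower in Runt than in Runt G163R and higher in sens mutant than in control with the values as deposited, where 44.5% of all probe sets above 8 had this pair of signs. The difference of the 2 contrasts, Runt minus Runt G163R less sens mutant minus sens control, was called for 8 subunits below 0 and for ATPsynepsilonL above 0. Over all probe sets 10.1% were called, 6.74% below 0 and 3.35% above 0. ND-PDSW stood at -0.14 in the Runt comparison and 0.36 in the sens comparison, ND-SGDH at -0.21 and 0.23, and ATPsynB at -0.03 and 0.37. The others below 0 were ND-B14.5B, ND-B17.2, SdhC, COX5A and ATPsynE. After median subtraction 0 subunits were called below 0.

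Between experiments the subunits stood higher in the Runt-experiment arrays more often than lower. Of 47 bright subunits, 15 (31.9%) were higher on all 6 Runt and Runt G163R arrays than on any sens array, and 1 was lower, where 19.8% and 14.3% of all probe sets above 8 were. ATPsynB, for example, lay between 12.85 and 13.02 on the first 6 arrays and between 12.21 and 12.69 on the sens arrays, and ND-B14 was the gene lower on all 6. Haemocyte markers also differed, with a list mean of 8.02 to 9.18 in the Runt experiment and 4.14 to 5.51 in the sens experiment. Genotype, cross and experiment cannot be told apart here, and the difference was not tested.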

How the data were processed

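Total RNA was hybridised to 12 Affymetrix arrays, 3 for each of 4 groups taken from the sample titles. The deposited log2 values run from 1.63 to 15.4, with array medians between 2.59 and 2.67. MAS5, GCRMA and affy are named in the submitters' processing notes with no role, so which background correction and normalization the authors applied is not known here. Symbols came from GEO's platform annotation, updated through a RefSeq gene table, and 0 value columns were left unused. Of 18952 probe sets, 13647 had 1 gene, and each gene was read from its probe set with the highest 12-array mean. Probe sets above the 40th percentile of the array on at least 3 arrays were kept (11470). With limma 3.58.1 in R 4.3.3, 4 group means were fitted over all 12 arrays with an intensity trend, and p-values were adjusted by Benjamini-Hochberg over all kept probe sets, with 95% intervals. No detection calls were used, and log2 3 served as the floor and a mean above 8 as bright. The members and lists were chosen with earlier results of these data known. Every member called was named, with the 3 of smallest p in each complex and comparison, members in the floor, up to 4 genes of each list and called markers. Genes named outside this rule were chosen after their values were seen. Lists covered electron carriers and transporters, the tricarboxylic acid cycle, glycolysis, biogenesis, assembly, antioxidant enzymes and markers of eye, brain, antenna and leg, muscle, fat body, haemocyte, testis and salivary gland. A list of 6 subunits with other names was added later. Alternatives were the filter, 2 scalings, the trend, array weights, each experiment's own arrays, a replicate block, averaged probe sets and leaving out each array. The fit was tested on simulated data. The number of arrays limits the precision.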

Additional observations from a re-analysis of the deposited data

Results flagged for a closer look

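For 9 members the difference in the Runt experiment (Runt minus Runt G163R) differed from that in the sens experiment (sens mutant minus sens control) by limma's test of the contrast between them, where 10.1% of all probe sets were called. The contrast was -0.50 for ND-PDSW (-0.4959, adjusted p = 0.0126), -0.4384 for ND-SGDH, -0.4017 for ND-B14.5B and -0.364 for ND-B17.2 in complex I. It was -0.361 for SdhC in complex II and -0.3072 for COX5A in complex IV. In complex V it was -0.4036 for ATPsynB and -0.2726 for ATPsynE, and 1.44 for the paralogue ATPsynepsilonL. Cross, genotype and experiment differ together and cannot be told apart, and after median subtraction 0 of the 8 contrasts below 0 were called.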

How the results depend on the processing

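In the Runt comparison 0 members were called higher or lower under every alternative but array weights, which called 3 lower among 466 probe sets called. In the sens comparison the 9 calls higher became 5 without a filter, 3 after a second quantile normalization, 0 after median subtraction, 15 with array weights, 4 without members on 3L and 3R, and 4 to 7 with each array left out in turn, and the 1 call lower became 0 without 3L and 3R. With the sens experiment's own arrays 11 members were called in either direction, and 1407 probe sets over the array, against 1940. ND-42, ND-B14, ND-B14.5A, ND-B17.2 and SdhD were then called, while COX5A, ND-SGDH, ND-B14.5B and ND-B16.6 were not. The difference of contrasts gave 8 calls below 0, and 5 without a filter, 3 after second quantile normalization, 0 after median subtraction, 21 with array weights and 4 to 12 with each array left out. Over the whole array it gave 1157 calls in either direction, and 795, 924, 1104 and 2669 in these 4 settings in turn. With each array left out it gave 702 to 1327. Median subtraction moved the sens medians to 0.0372 in complex I, 0.12 in complex II, -0.14 in complex III, -0.0873 in complex IV and -0.13 in complex V, since it adds 1 shift to each array, and the second quantile normalization to 0.15, 0.24, -0.03, 0.03 and 0.00258. With each array left out the Runt medians ran from -0.16 to -0.0596 in complex I, -0.17 to 0.01 in complex II, -0.12 to -0.05 in complex III, -0.13 to -0.0391 in complex IV and -0.09 to -0.00345 in complex V. The sens medians ran from 0.17 to 0.22, 0.24 to 0.31, 0.01 to 0.07, 0.03 to 0.10 and 0.00 to 0.08. Median subtraction turned the sign of 21 of the 43 bright subunits above 0 in the sens comparison, and 22 stayed above 0. Among the 21 that turned were COX4 (-0.0719), COX7C (-0.0279), UQCR-14 (-0.0617) and UQCR-Q (-0.14). UQCR-Q also stood at -0.0514 after second quantile normalization, and between -0.00515 and 0.0587 with each array left out. In the Runt comparison SdhD turned to 0.00910 without Runt G163R replicate 1, and SdhBL ran from -0.00484 without Runt replicate 1 to 0.0267 without Runt replicate 3. None of these had been called, and the cause of the changes with other settings was not tested.

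Replicate numbers are shared by all groups, but same-numbered arrays did not deviate together, with correlations of 0.26, -0.12 and 0.06 in the Runt experiment and -0.42, -0.07 and 0.08 in the sens experiment. With the replicate number as a block the calls were 7 higher and 1 lower in the sens comparison, 0 in the Runt comparison, and 6 below 0 and 1 above 0 for the difference of contrasts. Over all probe sets the sens comparison then gave 1564 calls, against 1940 without the block, and the difference of contrasts gave 817, against 1157.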
